A study of Mus musculus with 4 samples.

Results

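The homeobox genes Shox2, Prrx1, Prrx2, Alx1, Alx4, Msx1, Msx2, Lhx2 and Lhx9 are a set of 9 transcription factor genes of the limb mesenchyme among the 21757 protein-coding genes of the mouse annotation. They were chosen by name for their roles in limb development, with earlier results of these data known. H3K27ac, a histone acetylation found at active promoters and enhancers, was read around each of them. Every peak interval within 200 kb of a gene's start site was taken, and an interval was called promoter where it overlapped a window that reached 2 kb upstream and 500 bp downstream around any protein-coding start site, and distal otherwise. A member's own promoter was called marked where an interval overlapped such a window of that gene. All coordinates are from mouse genome build GRCm39.

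The study asked which enhancers act in the cartilage-forming cells, or chondrocytes, of the limbs and of the trunk of mouse fetuses. It profiled H3K27ac by ChIP-seq at stage E14.5 of embryonic development in 4 sorted populations: limb EGFP+, limb EGFP-, trunk EGFP+ and trunk EGFP- cells, with 1 library each. All fetuses were male, came from G4 embryonic stem cells by tetraploid aggregation, and carried the sensor Col2a1-EGFP, an EGFP reporter next to the promoter of the cartilage collagen gene Col2a1, so the EGFP- cells carry the same allele and are the other cells of the same dissections. Limbs were the segments from upper arm or thigh to hand or foot, and trunks ran from neck to tail without the internal organs. Cells were pooled from several fetuses.

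With 1 library per population there is no replicate error, and the populations were compared without a test. The limb and the trunk libraries ran on different lanes by their names, and a difference by lane cannot be told apart from one by tissue. The peak names of the trunk EGFP- list say replicate 2 where its label says replicate 1. The lists held 40899 intervals in limb EGFP+, 34360 in limb EGFP-, 36231 in trunk EGFP+ and 30716 in trunk EGFP- cells, of which 22833, 17768, 19295 and 14231 were distal. The authors sampled a similar number of reads from each library before calling peaks, and the median summit held 23 to 27 reads. Among the weakest 200 summits of a list the median was 9 or 10 reads and the lowest 7 or 8, and more reads were needed where the local background was higher. An interval that is missing from a list was therefore not detectable above its local background at this depth, which does not show that acetylation was absent. In sorted bulk cells, fewer cells with the mark and less mark per cell cannot be told apart.

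Marker promoters were read as a check of the labels. All 6 chondrocyte genes examined (Col2a1, Acan, Sox9, Fgfr3, Matn1 and Col9a1) were marked in limb EGFP+ and in trunk EGFP+ cells. Limb EGFP- cells had 2 of them marked (Col2a1 and Sox9) and trunk EGFP- cells 1 (Sox9). The Sox9 promoter was thus marked in all 4 lists. Of 3 genes of limb position, Tbx5, Tbx4 and Pitx1, limb EGFP+ cells had 3 marked, limb EGFP- cells 2, trunk EGFP+ cells 1 (Tbx4) and trunk EGFP- cells 0. Of 3 genes of axial position, Pax1, Pax9 and Nkx3-2, trunk EGFP+ cells had 3 marked, limb EGFP+ cells 2, and both EGFP- lists 0. The promoters of 3 epithelial and 3 endothelial genes were marked in none of the 4 lists, and of 3 muscle genes Myog alone was marked, in limb EGFP+ cells. Both EGFP- lists marked 2 of 3 connective tissue genes (Col3a1 and Dcn), limb EGFP+ cells also 2 (Col3a1 and Kera) and trunk EGFP+ cells 1 (Col3a1), so this list did not separate the fractions by its count. The cartilage marks of Acan, Fgfr3, Matn1 and Col9a1 lay in the EGFP+ lists alone, while Col2a1 and Sox9 were also marked in EGFP- cells. Limb position marks lay mostly in the limb lists, with Tbx4 also in trunk EGFP+ cells and Pitx1 in limb EGFP+ cells alone. Axial marks lay in the EGFP+ lists alone. The part of these marks in the values of the homeobox genes was not tested.

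Homeobox proteins bind DNA through a folded domain that prefers short TAAT sequences, and many genes for them are switched on in the limb bud by enhancers far from the gene. Shox2 acts in the proximal limb segment, where its loss shortens upper arm and thigh. Prrx1 and Prrx2 are paired-class factors of early limb and face mesenchyme, and Alx1 and Alx4 are related factors with roles in the face and, for Alx4, in the anterior limb. Msx1 and Msx2 are targets of BMP signalling in mesenchyme below the ectoderm and in the undifferentiated distal limb, and Lhx2 and Lhx9 are LIM-homeobox genes that link signals of the limb bud ridge to outgrowth.

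Distal intervals were most numerous in limb EGFP+ cells around Shox2 and the Msx and Lhx genes, and in trunk EGFP+ cells around Prrx1 and Alx1. A gene was counted as higher in a list that held at least 2 times as many distal intervals as the other and at least 3 more. By that rule 5 of the 9 genes, Shox2, Msx1, Msx2, Lhx2 and Lhx9, had more in limb EGFP+ than in trunk EGFP+ cells, against 6.92% of all protein-coding genes. Alx1 was the 1 member with more in trunk EGFP+ cells, against a background of 3.34%. A gene needs at least 3 intervals in 1 of the 2 lists to pass, and among the 13577 genes that had them, 8 members included, the 2 shares were 11.1% and 5.35%. Prrx1 (10 against 6), Prrx2 (32 against 26) and Alx4 (2 against 1) had more intervals in trunk EGFP+ than in limb EGFP+ cells without passing the rule, and at a −log10 q of at least 5 these counts became 1 against 3, 19 against 20 and 0 against 1. The sums over the 9 genes were 61 intervals in limb EGFP+, 56 in limb EGFP-, 57 in trunk EGFP+ and 45 in trunk EGFP- cells. Prrx2 held more of them than any other member in every list, and without it the sums were 35, 20, 25 and 12. The member median was 6 distal intervals in limb EGFP+, 2 in limb EGFP-, 2 in trunk EGFP+ and 1 in trunk EGFP- cells, and the median over all genes was 3, 3, 3 and 2.

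**Figure D1:**
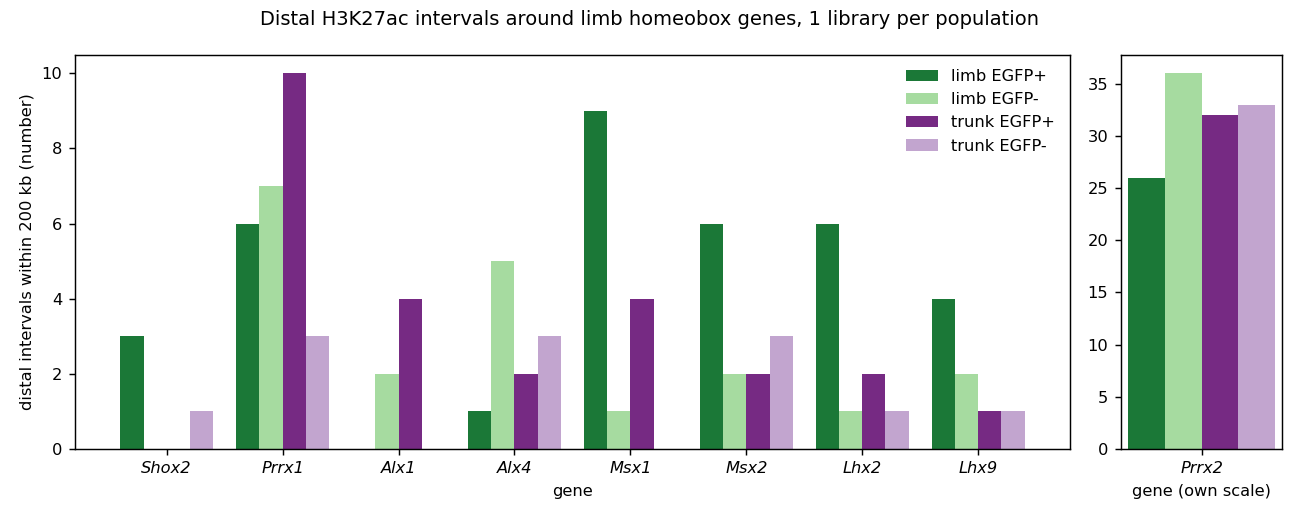
Number of distal H3K27ac intervals within 200 kb of each gene's start site (vertical axis, Prrx2 on its own scale), 1 bar per population and 1 library per bar, so there are no error bars. The dark green limb EGFP+ bar is the tallest for Shox2, Msx1, Msx2, Lhx2 and Lhx9, whereas the dark purple trunk EGFP+ bar is the tallest for Prrx1 and Alx1.

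The other comparisons moved fewer members. Between the EGFP- populations, Prrx1 had more distal intervals in limb EGFP- than in trunk EGFP- cells (1 of 9, background 7.94%), and 0 of 9 had more in trunk EGFP- cells (background 2.27%). Within the limb, Shox2, Msx1, Msx2 and Lhx2 had more in EGFP+ cells (4 of 9, background 14.53%) and Alx4 more in EGFP- cells (1 of 9, background 5.72%). Within the trunk, Prrx1, Alx1 and Msx1 had more in EGFP+ cells (3 of 9, background 15%), and 0 of 9 more in EGFP- cells (background 3.9%). Among genes with at least 3 intervals in 1 of the 2 lists, the shares were 13.7% and 3.9% between the EGFP- lists, 22.6% and 8.88% within the limb, and 24.6% and 6.42% within the trunk. A fixed list of 20 other homeobox genes of limb and trunk mesenchyme gave 4 genes with more distal intervals in limb EGFP+ than in trunk EGFP+ cells (Barx2, Lmx1b, Pitx1 and Six2) and 1 with more in trunk EGFP+ cells (Meis1). Between the EGFP- lists it gave 5 with more in limb and 1 with more in trunk cells. Within the limb it gave 3 with more in EGFP+ and 3 with more in EGFP- cells, and within the trunk 3 and 1. Pitx1, a factor of hindlimb identity, had 11 distal intervals in limb EGFP+, 5 in limb EGFP-, 0 in trunk EGFP+ and 4 in trunk EGFP- cells. Lmx1b, a factor of dorsal limb identity, had 21, 13, 5 and 8.

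These member counts are small and several rest on 3 or 4 intervals. Within 100 kb rather than 200 kb of the start site, 1 of the 5 limb EGFP+ calls against trunk EGFP+ cells was left, that of Msx1, and within 500 kb there were 2, Shox2 and Msx1. With every list cut to the length of the shortest, the 1 such call was Lhx9, and of the 4 calls of limb EGFP+ over limb EGFP- cells 1 was left, that of Msx1. The EGFP+ lists were the longer ones in both tissues, and the limb lists were the longer ones in both fractions.

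With the full lists, the promoters of the members were marked most often in limb EGFP+ cells. An interval overlapped the promoter of 6 of the 9 genes in limb EGFP+, 2 in limb EGFP-, 2 in trunk EGFP+ and 1 in trunk EGFP- cells, while 54.0%, 51.2%, 52.2% and 52.2% of all genes had a marked promoter. Among the 20000 strongest intervals the lead of limb EGFP+ was gone. Both limb lists and the trunk EGFP+ list then had 2 marked members each, and the trunk EGFP- list had 1. At a fold of at least 4, both limb lists and the trunk EGFP- list had 1 each, and the trunk EGFP+ list had 0. The lead was kept under the other filters, start sites and promoter window. The promoters of Prrx1, Msx1, Msx2, Lhx2 and Lhx9 were marked in limb EGFP+ and not in trunk EGFP+ cells (5 of 9, background 3.36%). At a −log10 q of at least 5, and with lists cut to the shortest, this held for Msx1, Lhx2 and Lhx9. Among the 20000 strongest intervals it held for Msx1 and Lhx9, and at a fold of at least 4 for 1, Msx1. With the gene's 5′ end as start site, Msx2 and Lhx2 were removed. A promoter window of 1 kb on each side removed Prrx1, as described below. The 20 other homeobox genes gave 7 with a promoter marked in limb EGFP+ and not in trunk EGFP+ cells, and 12 marked in limb EGFP+, 8 in limb EGFP-, 6 in trunk EGFP+ and 8 in trunk EGFP- cells. That of Alx1 was marked in trunk EGFP+ and not in limb EGFP+ cells (1 of 9, background 1.55%). Prrx1, Msx1, Msx2 and Lhx2 were marked in limb EGFP+ and not in limb EGFP- cells (4 of 9, background 4.79%), and 0 of 9 the other way (background 2%). Between the EGFP- lists, Lhx9 was marked in limb and not in trunk cells (1 of 9, background 2.15%), and 0 of 9 in trunk and not in limb cells (background 3.22%). In the trunk, Alx1 was marked in EGFP+ and not in EGFP- cells (1 of 9, background 3.19%), and 0 of 9 the other way (background 3.29%). The promoters of Shox2 and Alx4 held no interval in any of the 4 lists, and that of Prrx2 held 1 in each.

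**Figure D2:**
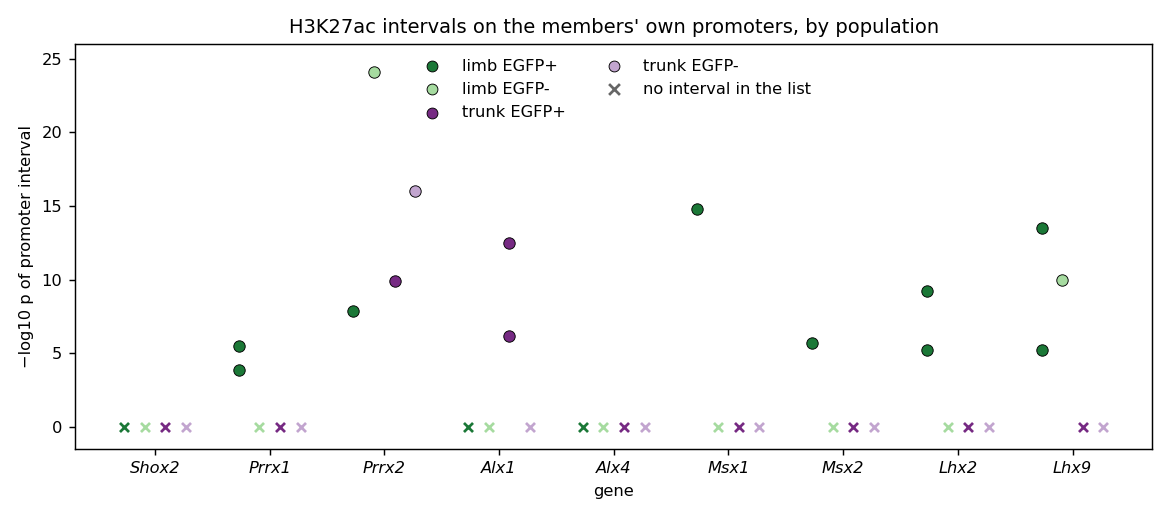
The −log10 p of each interval on a member's own promoter (vertical axis) by gene and population, with a cross at 0 where the list held no interval there. Points of limb EGFP+ cells stand over 6 genes, and Alx1 carries points of trunk EGFP+ cells alone, at 12.5 and 6.16.

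Below, the strength of an interval is given as the −log10 p of its highest summit against the local background of its own library, and its rank as the percentile among the distal intervals of its own list. Folds of different libraries were not divided by each other. Intervals of the 4 lists that overlapped were merged, which gave 115 distal regions around the 9 genes out of 43885 in the genome. The windows of the 9 genes did not overlap each other, but most held other genes, and the nearest protein-coding start site was that of the member for 33 of the 115 regions.

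Sequences of 4 regions are shown because each stands for a pattern described below: marked in limb EGFP+ cells alone (Shox2), in both EGFP+ populations (Msx1), in trunk EGFP+ cells alone (Alx1), and in limb EGFP- cells alone with the 1 paired-class motif of the set (Alx4). Each run spans 100 bases on both sides of the summit, on the plus strand of GRCm39. The isolated capital marks the summit base, and the run of capitals in the Alx4 sequence marks the motif. The Shox2 run is chr3:66706184-66706384, the Msx1 run chr5:37882300-37882500, the Alx1 run chr10:102715017-102715217 and the Alx4 run chr2:93580822-93581022.
Shox2: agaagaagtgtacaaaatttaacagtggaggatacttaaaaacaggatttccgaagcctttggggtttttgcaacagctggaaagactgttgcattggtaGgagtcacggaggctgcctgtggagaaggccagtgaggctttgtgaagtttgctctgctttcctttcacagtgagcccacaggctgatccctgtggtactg
Msx1: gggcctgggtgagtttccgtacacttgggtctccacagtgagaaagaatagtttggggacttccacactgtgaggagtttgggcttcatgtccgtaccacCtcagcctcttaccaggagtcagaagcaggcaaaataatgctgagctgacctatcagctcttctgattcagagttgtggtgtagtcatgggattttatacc
Alx1: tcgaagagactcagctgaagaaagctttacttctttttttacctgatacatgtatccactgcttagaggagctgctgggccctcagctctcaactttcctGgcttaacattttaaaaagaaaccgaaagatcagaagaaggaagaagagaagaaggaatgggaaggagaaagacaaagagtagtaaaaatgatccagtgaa
Alx4: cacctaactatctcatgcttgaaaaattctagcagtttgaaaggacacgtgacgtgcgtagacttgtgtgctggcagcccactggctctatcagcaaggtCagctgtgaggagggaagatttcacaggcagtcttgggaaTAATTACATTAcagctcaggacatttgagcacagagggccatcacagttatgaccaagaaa

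Around Shox2 the distal mark lay mostly far downstream and in the limb EGFP+ list. The promoter of the neighbouring gene Rsrc1, at -3.7 kb from the Shox2 start site, was marked in all 4 lists. Its −log10 p was 10.4 in limb EGFP+, 12.1 in limb EGFP-, 11.8 in trunk EGFP+ and 12.9 in trunk EGFP- cells. With the promoter of Shox2 alone left out, the counts were 5, 2, 1 and 3 in that order. The gene had 3 distal intervals in limb EGFP+, 0 in limb EGFP-, 0 in trunk EGFP+ and 1 in trunk EGFP- cells. The strongest, chr3:66706048-66706648, lay 183 kb downstream of the start site in intergenic sequence with 28 reads at its summit (95% exact Poisson interval 18.6 to 40.5, which covers counting error only), a −log10 p of 13.0 and a rank at the 82.2nd percentile. The other limb EGFP+ intervals lay beside it at 182 kb and at 197 kb, with −log10 p of 4.77 and 3.64. For 3 of the 4 regions Shox2 had the nearest start site, and no interval of another population overlapped these 3. The trunk EGFP- interval lay 18.3 kb upstream in an intron of Rsrc1, at a −log10 p of 5.74. Within 500 kb, the counts were 11 in limb EGFP+, 5 in limb EGFP-, 1 in trunk EGFP+ and 2 in trunk EGFP- cells, so the limb lists held more there than the trunk lists in both fractions. Of the limb EGFP+ intervals within 200 kb, 1 had a fold of at least 4.

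Around Prrx1 all 4 populations were marked close to the gene. A region in the gene's own exon sequence just inside the start site, chr1:163139356-163141293, was marked in all 4 lists, at a −log10 p of 8.28 in limb EGFP+, 10.9 in limb EGFP-, 6.83 in trunk EGFP+ and 13.7 in trunk EGFP- cells. It began just beyond the promoter window, so the limb EGFP+ promoter intervals of −log10 p 5.50 and 3.85 do not set limb EGFP+ cells apart: with a promoter window of 1 kb to either side, the Prrx1 promoter was marked in all 4 lists. The distal counts were 6 in limb EGFP+, 7 in limb EGFP-, 10 in trunk EGFP+ and 3 in trunk EGFP- cells. Farther than 5 kb from the start site they were 4, 5, 6 and 1, so the trunk EGFP- list was the poorest there too. An interval 32.7 kb downstream, in an intron of Prrx1, was marked in both EGFP+ lists, at a −log10 p of 9.47 in limb and 5.31 in trunk cells. An intergenic stretch about 109 kb upstream was marked in 3 lists, at 9.40 in limb EGFP+, 8.02 in limb EGFP- and 8.51 in trunk EGFP+ cells. Its limb EGFP+ interval was 1268 bp wide, at the 98.3rd percentile of width.

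Prrx2 had the densest window of the set. It held 26 distal intervals in limb EGFP+, 36 in limb EGFP-, 32 in trunk EGFP+ and 33 in trunk EGFP- cells, and at least 99.5% of all genes had fewer in the same list. The window also held the main start sites of 8 other genes, and Prrx2 had the nearest start site for 9 of its 50 regions. By this measure its counts fell to 6, 7, 4 and 4. Of its 50 regions 16 were marked in all 4 lists, where all 9 genes together had 18, and 14 were marked in 1 list, namely 6 in limb EGFP-, 5 in trunk EGFP+, 3 in trunk EGFP- and 0 in limb EGFP+ cells. The strongest, chr2:30717467-30718370 in an exon of Asb6, had a −log10 p of 57.4 in limb EGFP+, 22.4 in limb EGFP-, 37.7 in trunk EGFP+ and 34.0 in trunk EGFP- cells, which ranked it at the 99.7th percentile in limb EGFP+, the 95th in limb EGFP-, the 99.3rd in trunk EGFP+ and the 98.8th in trunk EGFP- cells. The promoter interval lay at the 5′ alternative start site, about 11 kb upstream of the main one. Its −log10 p was 7.88 in limb EGFP+, 24.1 in limb EGFP-, 9.91 in trunk EGFP+ and 16.0 in trunk EGFP- cells, so it ranked higher in both EGFP- lists (80.1st and 68.0th percentile of all intervals) than in the EGFP+ lists (37.1st and 51.8th). The strongest intergenic region in the gene's 3′ direction, chr2:30775578-30776541 at 40.8 kb, was marked at 28.5 in limb EGFP-, 7.37 in trunk EGFP+ and 10.7 in trunk EGFP- cells and was not called in limb EGFP+ cells.

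Alx1 was the gene with the clearest trunk EGFP+ mark. It had 4 distal intervals in trunk EGFP+, 2 in limb EGFP-, 0 in limb EGFP+ and 0 in trunk EGFP- cells. Its promoter carried 2 trunk EGFP+ intervals, chr10:102863938-102864490 with 37 reads at the summit and a −log10 p of 12.5, and chr10:102865642-102866113 with 26 reads and 6.16. No other list called an interval there, and the promoter mark of trunk EGFP+ cells was kept at a −log10 q of at least 5 and lost at a fold of at least 4, as the 2 intervals had folds of 3.88 and 2.74. No other protein-coding gene had its main start site within 200 kb, but an alternative start site of Lrriq1 was the nearest for 1 of the 6 regions. The distal intervals were weak by comparison: the strongest trunk EGFP+ interval, chr10:102714947-102715271 at 150 kb downstream, had 16 reads and a −log10 p of 7.42 (57.9th percentile), and the next, 6.96 kb upstream, had 6.48. The remaining trunk EGFP+ intervals had 8 reads each, and both limb EGFP- intervals had 9. With a −log10 q of at least 5, 0 distal intervals of Alx1 were left in any list, so at that limit the trunk EGFP+ mark was on the promoter.

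Alx4 was marked in mostly non-overlapping regions in the 4 populations, and its own promoter was not called in any. Some of these regions were close neighbours. The trunk EGFP+ interval chr2:93621982-93622236 and the limb EGFP- interval chr2:93622244-93622443 lay side by side without overlap. The limb EGFP- interval there had 8 reads at its summit, near the limit of its list. The distal counts were 1 in limb EGFP+, 5 in limb EGFP-, 2 in trunk EGFP+ and 3 in trunk EGFP- cells, and none of the 10 regions was shared by limb EGFP+ and another list. The limb EGFP+ interval, chr2:93602502-93603090, lay 130 kb downstream in an intron of Ext2, a heparan sulfate synthesis gene, with 22 reads, a −log10 p of 12.6 and a rank at the 81.0th percentile. An intergenic region 172 kb upstream, chr2:93300726-93301227, was called in both EGFP- lists at 12.5 in limb and 9.40 in trunk cells. A further trunk EGFP- interval, chr2:93300257-93300558, lay beside it. Ext2 and Cd82, a membrane protein gene, had the nearest start site for all but 2 of the 10 regions. A trunk EGFP- interval 0.885 kb downstream of the Alx4 start site, at a −log10 p of 5.52, fell just outside the promoter window and overlaps a window of 1 kb on each side.

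Msx1 had the largest excess of limb EGFP+ intervals among the 9 genes. The counts were 9 in limb EGFP+, 1 in limb EGFP-, 4 in trunk EGFP+ and 0 in trunk EGFP- cells, so both EGFP+ lists stood above the EGFP- list of the same tissue. Of its 10 regions 9 were marked in EGFP+ cells alone: 4 in both tissues and 5 in limb EGFP+ cells. The excess over limb EGFP- cells was kept under 9 of the 10 alternatives and that over trunk EGFP+ cells under 6. The promoter was marked in limb EGFP+ cells, at chr5:37981369-37981777 with 37 reads (95% exact Poisson interval 26.1 to 51.0), a −log10 p of 14.8 and 4.51-fold over background, and in no other list. It was also the 1 member promoter that limb EGFP+ cells kept at a fold of at least 4.

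Most of the Msx1 regions lay 72 to 100 kb downstream, around the genes Cytl1 and Stk32b. The strongest, chr5:37881687-37882579, had a −log10 p of 24.1 and a rank at the 95.1st percentile in limb EGFP+ cells, against 8.33 and the 66.4th percentile in trunk EGFP+ cells. The promoter of Cytl1, a gene for a secreted protein of cartilage, was marked in the same 2 populations, at 8.82 in limb EGFP+ and 10.8 in trunk EGFP+ cells, and that of the kinase gene Stk32b at 21.2 and 8.04. Msx1 had the nearest start site for 3 of the 10 regions, and by that measure its counts were 2 in limb EGFP+, 1 in limb EGFP-, 0 in trunk EGFP+ and 0 in trunk EGFP- cells. The limb EGFP+ intervals closest to Msx1 were a pair 39.8 and 39.2 kb downstream, with −log10 p of 7.03 and 8.68. Which gene any of these regions acts on was not measured.

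**Figure D3:**
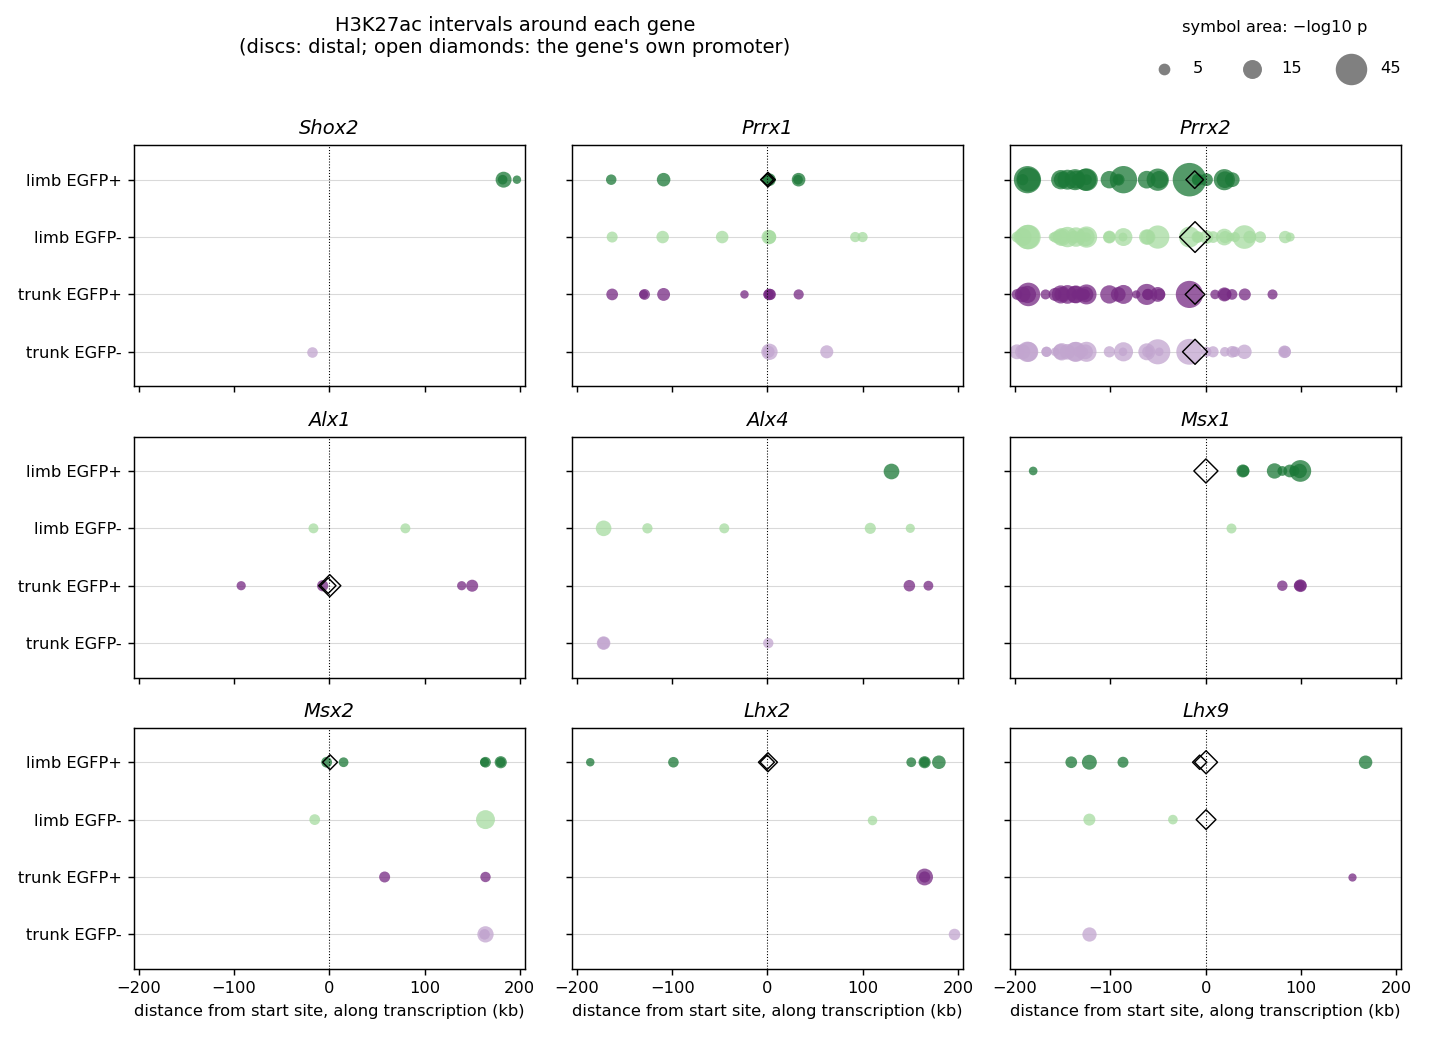
Position of each H3K27ac interval by its summit's distance from the gene's start site in kb, positive along the direction of transcription, with 1 lane per population and symbol area proportional to −log10 p. Discs are distal intervals and open diamonds are on the gene's own promoter. Msx1 shows the limb EGFP+ group of discs 72 to 100 kb downstream, Shox2 the limb EGFP+ discs beyond 180 kb, and Prrx2 large discs at like places in all 4 lanes.

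Msx2 differed from Msx1 in that its strongest region was shared and stronger in the EGFP- lists. The counts were 6 in limb EGFP+, 2 in limb EGFP-, 2 in trunk EGFP+ and 3 in trunk EGFP- cells. The intergenic region chr13:53462869-53464435, 164 kb downstream, was marked in all 4 lists at a −log10 p of 5.89 in limb EGFP+, 18.3 in limb EGFP-, 5.52 in trunk EGFP+ and 13.6 in trunk EGFP- cells. It ranked at the 92.4th percentile in limb EGFP- and the 88.8th in trunk EGFP- cells, and its limb EGFP- interval was wide at 1567 bp (99.7th percentile). The limb EGFP+ list had it as 2 narrow intervals, so the count of 6 in part reflects a split. The trunk EGFP- list had it as 3 intervals, which were its whole count. The 4 regions marked in limb EGFP+ cells alone were weaker: the strongest, chr13:53447338-53447668 at 180 kb downstream, had 16 reads and 7.58 (53.2nd percentile), and 1 lay 2.77 kb upstream of the start site at 5.95. The promoter interval, chr13:53626086-53626420, was called in limb EGFP+ cells with 17 reads and a −log10 p of 5.70. It was lost under every filter on the lists and with the gene's 5′ end as start site. With all lists cut to the length of the shortest, limb EGFP+ cells had 1 distal interval against 2 in limb EGFP- cells, the opposite order. Counting summits rather than intervals gave 6 in both limb lists.

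Lhx2 was marked on its promoter in limb EGFP+ cells, while its distal regions lay beside other genes. The promoter carried 2 limb EGFP+ intervals, with −log10 p of 9.19 (chr2:38241213-38241434) and 5.24 (chr2:38240498-38240824), and none in the other lists. With the gene's 5′ end in place of its other start sites, no Lhx2 promoter interval was counted. The distal counts were 6 in limb EGFP+, 1 in limb EGFP-, 2 in trunk EGFP+ and 1 in trunk EGFP- cells. Lhx2 had the nearest start site for 0 of its 8 regions, for which Nek6 and Dennd1a were nearest. The strongest, chr2:38405345-38405662 in an intron of the kinase gene Nek6, was marked in both EGFP+ lists with a −log10 p of 5.09 in limb cells. It ranked at the 89.6th percentile in trunk EGFP+ and at the 17.5th in limb EGFP+ cells, with 58 and 45 reads at the summit. Limb EGFP+ cells alone marked chr2:38420575-38420993 in the same gene, with 20 reads and 9.43.

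Lhx9 was the 1 member whose promoter was marked in both limb fractions and in neither trunk list. The promoter interval had 43 reads at the summit and a −log10 p of 13.5 in limb EGFP+ cells (chr1:138769052-138769814) and 29 reads and 9.94 in limb EGFP- cells (chr1:138769333-138769772), and no interval was called there in either trunk list. It was kept in both limb lists at a −log10 q of at least 5 and among the 20000 strongest intervals of each list, lost in both at a fold of at least 4, and lost in limb EGFP- cells with the gene's 5′ end as start site. The distal counts were 4 in limb EGFP+, 2 in limb EGFP-, 1 in trunk EGFP+ and 1 in trunk EGFP- cells. The strongest region, chr1:138891840-138892221 in an intron of Dennd1b, was marked in 3 lists, at 11.4 in limb EGFP+, 7.39 in limb EGFP- and 10.4 in trunk EGFP- cells, and not in trunk EGFP+ cells. Limb EGFP+ cells alone marked chr1:138601829-138602114, 168 kb downstream, with 15 reads and 9.32. The trunk EGFP+ interval was near the limit of the list, with 7 reads and a −log10 p of 3.48. As for Lhx2, the nearest start site was that of another gene for all 6 regions.

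Within the lists, the distal intervals of the members were of middling strength except around Prrx2. The median percentile of the 61 limb EGFP+ intervals was 60.1, and that of the 35 without Prrx2 was 45.2. In limb EGFP- cells the 2 values were 58.6 and 31.9, in trunk EGFP+ cells 49.3 and 39.2, and in trunk EGFP- cells 65.1 and 62.4, the last over 12 intervals. Among the intervals of the 8 genes without Prrx2, 1 in limb EGFP+ and 1 in limb EGFP- cells lay in the upper 10% of its list, those of Msx1 and Msx2 given above, and 0 in either trunk list. The same intervals had median widths of 324 bp in limb EGFP+, 246 bp in limb EGFP-, 293 bp in trunk EGFP+ and 311 bp in trunk EGFP- cells, where the whole lists had 331, 294, 324 and 303 bp.

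**Figure D4:**
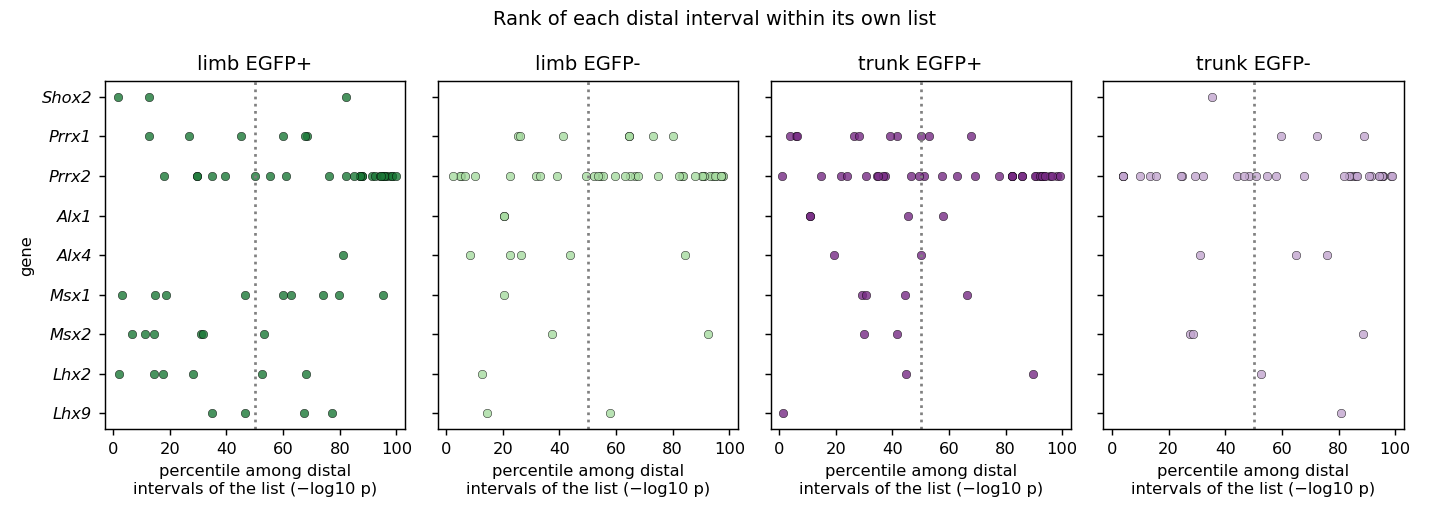
Rank of every distal interval of each gene as its percentile by −log10 p among the distal intervals of its own list (horizontal axis, 0 to 100), 1 panel per population, with a dotted line at 50. Prrx2 fills the right end of every panel, and outside Prrx2 the points above 90 are those of Msx1 in limb EGFP+ cells at 95.1 and Msx2 in limb EGFP- cells at 92.4.

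Over all 115 regions the shares by tissue and by fraction were close to those of the genome. Regions marked in the limb lists alone made up 38.3% (95% exact binomial interval 29.4 to 47.8%, n = 115), where all distal regions had 38.8%. Regions of the trunk lists alone made up 24.3% against 26.3%, of EGFP+ cells alone 41.7% against 46.2%, and of EGFP- cells alone 29.6% against 31.0%. Without Prrx2, whose 50 regions made up the largest part, 65 regions were left. Of these, 53.8% (41.0 to 66.3%) were marked in the limb lists alone and 63.1% (50.2 to 74.7%) in EGFP+ cells alone, while the trunk-only share was 26.2% and the EGFP- share 30.8%. These intervals treat regions as independent, which neighbours in 1 locus are not, and Prrx2 was set aside after its counts were seen.

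Homeodomain and SOX motifs were found at few of these summits, as at few summits of all distal regions. In the 201 bases around the summit, TAATTA, a core read by many homeodomains, was found in 4 of 115 member regions (3.48%) and in 3.48% of all distal regions. A pair of TAAT and ATTA with 3 bases between, the dimer site of paired-class factors, was found in 1 member region (0.87%) against 0.21%. This was chr2:93580814-93581105, 108 kb downstream of Alx4 in an intron of Ext2 and called in limb EGFP- cells alone with 12 reads and a −log10 p of 6.36, whose sequence is printed above. Its dimer also holds a TAATTA, so the same bases count for both motifs. The SOX half-site ACAATG, searched on both strands as all were, was found in 8 member regions (6.96%) against 8.99%, among them Msx1 regions at 80.6 kb (both EGFP+ lists) and 39.8 kb (limb EGFP+ alone). The median GC content was 52.7% for member regions and 49.3% for all. The sequences printed for Shox2, Msx1 and Alx1 hold none of these letters in their windows.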

How the data were processed

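H3K27ac ChIP-seq peak lists of 4 populations, 1 library each, were used as deposited. The authors trimmed reads with cutadapt 1.18, sampled a similar number per library, mapped them with Bowtie2 2.3.5.1 to GRCm39, filtered them with SAMtools and called peaks per library with MACS2 2.2.7.1 after extension to 200 bp. No control library is given in the sources used here. More than 1 read length is given without assignment to libraries, and the labels' protocol names 2 sonicators where the study's methods name 1. The deposited score is MACS2's integer form of the −log10 q. The deposited fold is a ratio of summit pileup to local background, and the deposited −log10 p and −log10 q come from the same MACS2 run.

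Rows of one start and end were joined. Start sites came from GENCODE vM39, used for all 21757 protein-coding genes; the distance of a region is from the main start site. Reads at a summit were recovered from fold and −log10 p (100% of 2000 sampled summits per list). Overlap required 1 bp. No test was made between populations; 95% exact intervals cover the error of counting alone. The members, lists and rules were chosen with earlier results of these data known. All 9 genes were named. The rule was to name also their 2 strongest regions and the strongest region of 1 tissue or 1 fraction, but it was not followed throughout. The second strongest regions of Prrx2 and Msx1 are not named, nor is the strongest region of 1 fraction of Prrx2. Further regions were named after their values were seen. Alternatives were windows of 100 and 500 kb, a −log10 q of at least 5, a fold of at least 4, the 20000 strongest intervals, lists cut to the shortest, summits, other start sites and windows, and nearest-gene assignment. Setting Prrx2 aside was added after the data were seen. Joining, counting and read recovery were tested on simulated data. Scripts ran on Python 3.11.15 with pandas 2.3.3, numpy 2.4.6, pysam 0.24.0, scipy 1.17.1 and matplotlib 3.10.9.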

Additional observations from a re-analysis of the deposited data

Results flagged for a closer look

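For 4 genes the order of the lists was opposite in the 2 fractions or in the 2 tissues, with the difference past the rule in 1 of them. None of these was tested, since there was 1 library per population. Shox2 had 3 more distal intervals in limb than in trunk among EGFP+ cells and 1 fewer among EGFP- cells. It likewise had 3 more in EGFP+ than in EGFP- cells in the limb and 1 fewer in the trunk. Prrx1 had 4 fewer (a difference of -4) in limb than in trunk EGFP+ cells and 4 more in limb than in trunk EGFP- cells. Its EGFP+ minus EGFP- difference was -1 in the limb and 7 in the trunk. For Alx1 the limb minus trunk difference was -4 in EGFP+ and 2 in EGFP- cells, and the EGFP+ minus EGFP- difference was -2 in the limb and 4 in the trunk. Msx2 had 4 more in limb than in trunk EGFP+ cells against a difference of -1 in EGFP- cells. It had 4 more in EGFP+ than in EGFP- cells of the limb against -1 in the trunk. All 3 trunk EGFP- intervals of Msx2 lay in 1 merged region, so both differences of -1 rest on how that region was split. Differences of 1 or 2 intervals were below the rule used for a call.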

How the results depend on the processing

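With 1 library per population no library could be left out, and no paired analysis was possible because each group has 1 sample and no result comes from a test. Members past the rule, main count first: limb EGFP+ over trunk EGFP+ was 5, and 1 within 100 kb, at a −log10 q of at least 5, for the 20000 strongest intervals, for lists cut to the shortest, by nearest start site and with the member's promoter alone left out, and 2 within 500 kb and at a fold of at least 4. Trunk EGFP+ over limb EGFP+ was 1, and 0 within 100 kb and under each of the 4 filters on lists. Limb EGFP- over trunk EGFP- was 1, and 0 within 100 kb, at the q, fold and 20000 filters and by nearest start site, 3 within 500 kb and 2 for summits. Limb EGFP+ over limb EGFP- was 4, and 1 within 100 kb, at the q and 20000 filters, for equal lists and by nearest start site, and 2 at a fold of at least 4. Limb EGFP- over limb EGFP+ was 1, and 0 within 100 kb and 500 kb, at the q, fold and 20000 filters, by nearest start site and with the member's promoter alone left out. Trunk EGFP+ over trunk EGFP- was 3, and 1 within 500 kb and 0 at the q, fold and 20000 filters. Trunk EGFP- over trunk EGFP+ was 0, and 1 for the 20000 strongest. The filters leave fewer intervals to count, and the cause of the other changes was not tested.

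Single differences were counted as turned round where the main or the alternative value was past the rule. Msx2 did so in limb EGFP+ minus trunk EGFP+ cells (-1 for equal lists). It also did so in limb EGFP+ minus limb EGFP- cells (-1 for equal lists and for the 20000 strongest). Lhx2 did so in limb EGFP+ minus trunk EGFP+ (-1, 20000 strongest), and Prrx1 in limb EGFP- minus trunk EGFP- (-1, 20000 strongest). Prrx1 also did so in trunk EGFP+ minus trunk EGFP- (-1 at the q filter, -3 for the 20000 strongest). From below the rule, Shox2 (3 within 500 kb) and Msx2 (3 for summits) did so in limb EGFP- minus trunk EGFP-. Sign changes that stayed below the rule were not counted. For example, Prrx1 in limb EGFP+ minus trunk EGFP+ went from -4 to 2 at the q filter, and Prrx2 from -6 to 1. Over the gene-level differences, 274 stayed on their side of the rule, 75 lost the call, 2 gained it and 9 turned round. The 274 include differences that were never past the rule. Single calls were kept under 2 to 9 of the 10 alternatives.

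Marked member promoters moved from 6 to 1 (fold of at least 4) and 2 (20000 strongest) in limb EGFP+, from 2 to 1 (fold, and the gene's 5′ end) in limb EGFP-, from 2 to 0 (fold) in trunk EGFP+ and from 1 to 3 (1 kb on each side) in trunk EGFP- cells. The limb-only share of 38.3% became 48.9% (fold), 25.6% (20000 strongest), 28.7% (equal lists), 54.5% (nearest start site) and 53.8% (without Prrx2), the trunk-only share of 24.3% became 14.0% (q), and the EGFP+ share of 41.7% became 28.2% (20000 strongest), 31.0% (equal lists) and 63.1% (without Prrx2). Ranked among all intervals, promoters included, the median percentile of the strongest distal interval fell from 79.1 to 55.6 in limb EGFP+, 69.0 to 45.4 in limb EGFP-, 62.1 to 40.2 in trunk EGFP+ and 80.8 to 52.0 in trunk EGFP- cells.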
